A study of Clarias macrocephalus with 14 samples.

Results

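Whole fry of Clarias macrocephalus, the broadhead catfish, were compared at 16 and 17 days post fertilization (dpf), 1 day apart. The comparison was between 4 of the 14 libraries of the series, 2 at 16 dpf and 2 at 17 dpf. In its tests, the low-count filter, the scaling and the estimate of spread came from all 14. Counts were summed over the 23837 all-digit Gene IDs among the 25238 Gene IDs of the table. The sums were tested with and without the 20 Gene IDs that had the highest summed counts at 17 dpf.

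All 14 libraries were made from total RNA of whole bodies after removal of ribosomal RNA, at 7 ages from 3 to 24 dpf. No treatment or genotype was given and sex was unknown. The series' title names candidate genes for air breathing as its subject. The labels do not say whether the 2 libraries of an age came from separate fry, pools or spawns. Each p-value therefore reflects only the spread between libraries of the same age, over the 14 libraries, which may be technical.

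Clarias catfishes breathe air as well as water. Their air-breathing organ is a chamber above the gills with branched, vascular tissue that grows out of the gill arches as the fry develop. In whole fry, the RNA of every tissue is mixed. A change in a transcript can therefore come from more cells of a type or from more RNA per cell, and these cannot be told apart here. Sequencing counts are also shares of a library: when a few transcripts take a larger part, the summed share of all others must drop. The files do not pair Gene IDs with gene names, so no tissue marker could be checked, and only 2 Gene IDs that rose and 2 that fell are given by number.

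The libraries held 6378996 and 8806313 counts of all-digit Gene IDs at 16 dpf and 3380907 and 2920437 at 17 dpf. On log2 CPM, Pearson's r across Gene IDs was 0.991 between the 16 dpf libraries and 0.929 between the 17 dpf libraries. It was 0.801 to 0.812 between the ages. Both replicate pairs differed by more than counting noise, with a median chi-square per Gene ID at unscaled totals of 1.27 times noise at 16 dpf and 2.10 times at 17 dpf.

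Between 16 and 17 dpf the libraries came to be dominated by a few Gene IDs. At 16 dpf, 496 and 476 Gene IDs were needed to make up 50% of the counts in replicates 1 and 2. At 17 dpf, 7 were enough in each replicate. The highest Gene ID at 17 dpf, 108271553, held 1.35 and 1.43% of the counts at 16 dpf and 30.7 and 32.9% at 17 dpf. In these shares the libraries of the 2 ages were far apart, and replicates of an age were close.

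The 20 highest Gene IDs at 17 dpf were chosen by their level there, so their shares are a description. Together they held 21.1 and 21.2% of the counts at 16 dpf and 60.9 and 60.1% at 17 dpf, or 60.5% ± 0.533 (SD, n = 2). Most of the gain came from Gene ID 108271553. Ranks 2 to 20 held 19.7 and 19.8% at 16 dpf and 30.1 and 27.2% at 17 dpf. The same 20 held 54.7 and 60.6% at 24 dpf, 32.9 and 33.3% at 14 dpf, and 15.3 to 27.2% in the libraries of 3, 5 and 13 dpf.

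**Figure D1:**
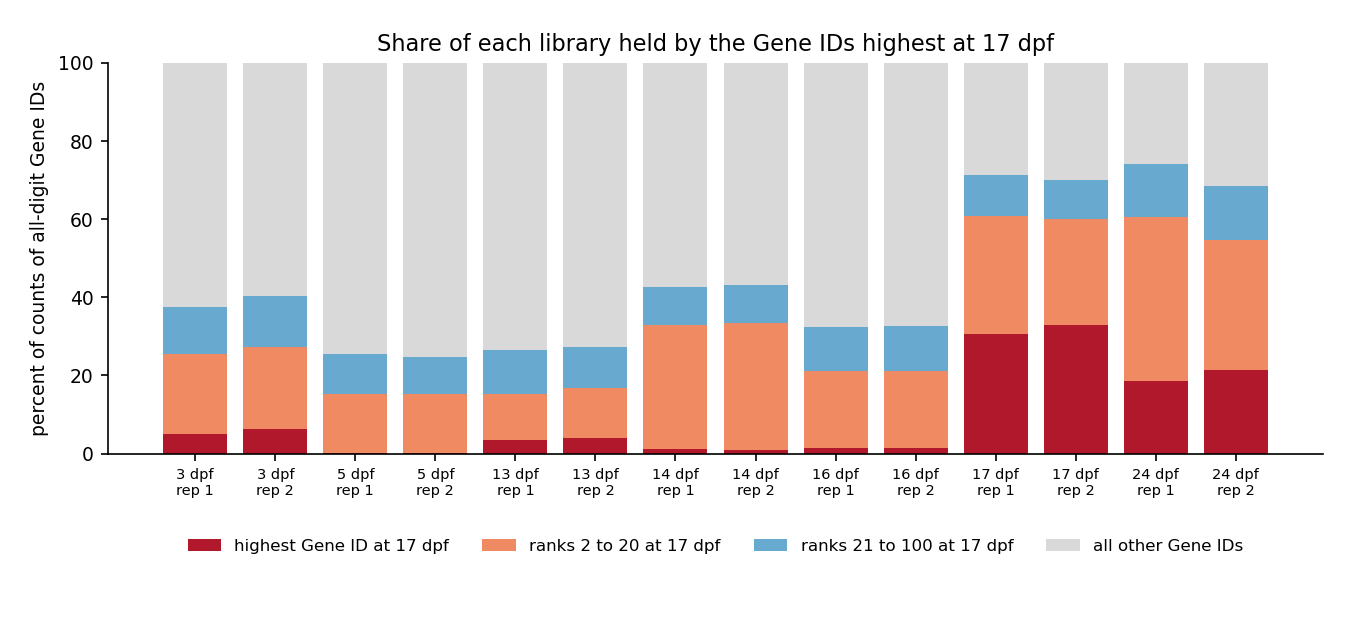
Percent of the counts of all-digit Gene IDs (vertical axis) in each of the 14 libraries, divided into the highest Gene ID at 17 dpf, ranks 2 to 20, ranks 21 to 100 and all others. The highest Gene ID fills 30.7 and 32.9% of the 17 dpf bars and 1.35 and 1.43% of the 16 dpf bars.

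By rank, 16 of the 20 Gene IDs had a larger share in both 17 dpf libraries than in either 16 dpf library. Choosing them by their level at 17 dpf favours this, and overlap in shares was not counted over all Gene IDs. Rank 19 had a smaller share, with 0.534 and 0.541% at 16 dpf and 0.415 and 0.411% at 17 dpf. The ratio of mean shares was 22.9 for the first rank and 0.769 to 3.14 for the others, with a median of 1.62 over ranks 2 to 20. Most of the others were already abundant: 14 of the 20 were also among the 20 highest at 16 dpf. Rank 20 came from lowest, since it was 56th at 16 dpf and went from 0.129 and 0.128% to 0.412 and 0.399%.

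**Figure D2:**
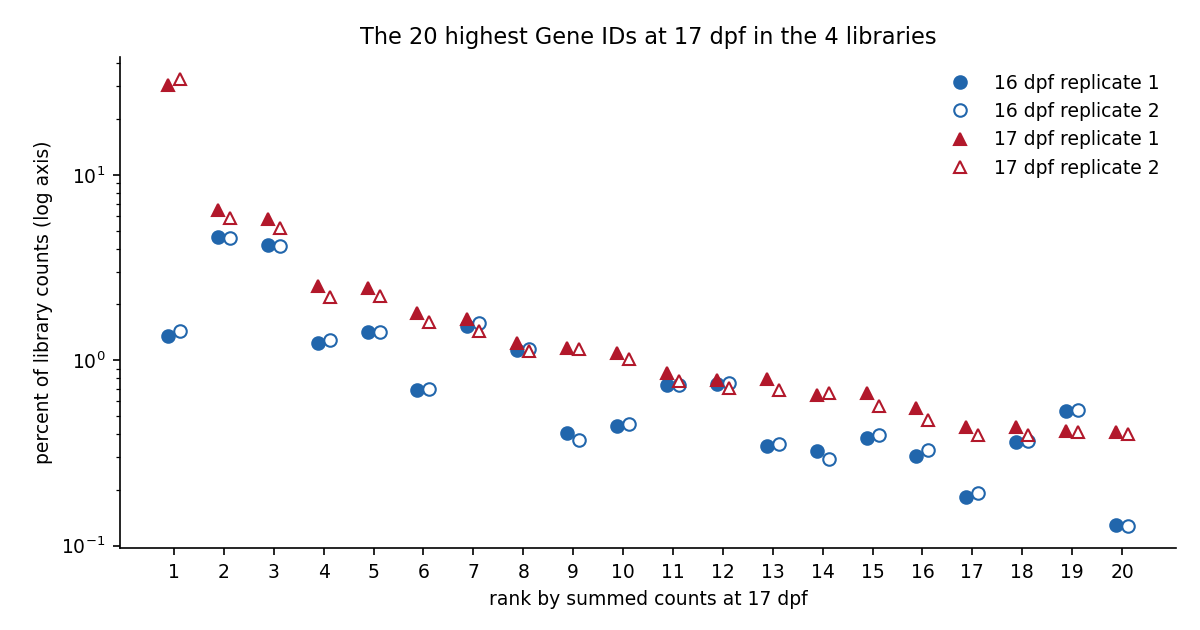
Percent of library counts (log axis) of the 20 highest Gene IDs at 17 dpf, ordered by rank, in the 2 libraries of 16 dpf and the 2 of 17 dpf. The first rank is 22.9 times higher in share at 17 dpf, while at ranks 7, 8 and 12 the ages overlap and rank 19 is lower.

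The steps beyond shares need a scale that a few very high Gene IDs cannot set. Levels are given as CPM, counts per 1e+06 of a library total scaled by TMM, which takes most Gene IDs as steady. The TMM factors were 1.33 and 1.32 at 16 dpf and 0.552 and 0.657 at 17 dpf. A Gene ID with an equal share at both ages therefore counts as higher at 17 dpf on this scale. With the 20 highest left out, the factors were 1.11 and 1.10 at 16 dpf and 0.965 and 1.11 at 17 dpf, so much of the gap between the ages was carried by those 20 Gene IDs.

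On the TMM scale nearly equal numbers of Gene IDs rose and fell, a balance that the scale itself favours. Of 18644 Gene IDs tested, 8728 (46.8%) passed edgeR's quasi-likelihood test of 17 against 16 dpf, with a Benjamini-Hochberg adjusted p under 0.05. Of these, 4333 (23.2%) were higher at 17 dpf and 4395 (23.6%) lower. The median log2 change was 1.11 among those called higher and -1.23 among those called lower, against 0.0047 over all tested. On this scale large changes were more often falls. At least 4-fold were 588 rises and 845 falls, and at least 16-fold 57 rises and 124 falls. These classes were not counted on other scales, and the part of the lower depth at 17 dpf was not tested.

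In CPM, the ages did not overlap for 13592 of the 18644 Gene IDs (72.9%), with 6666 above and 6926 below at 17 dpf. With so few libraries per age, many Gene IDs can separate in this way by chance, without any change in level. This percentage is therefore not the part of Gene IDs that changed with age. Overlap was counted on the TMM scale only, and another scale could move it. Of the 8728 called, 8683 were without overlap in the called direction, which is 4288 of those higher and all 4395 of those lower.

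On the TMM scale, leaving out the 20 highest Gene IDs before scaling changed the number called little. Then 9009 of 19040 Gene IDs (47.3%) were called, 4298 higher and 4711 lower at 17 dpf. Of the 4333 Gene IDs called higher with the 20 kept, which include those 20, 4030 were called higher again. Of the 4395 called lower, 4394 were called lower again, so nearly all calls lost were rises. None was called in the opposite direction. In edgeR, 281 of the 8705 that could be followed were no longer called.

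The choice of scale moved the balance of rises and falls. Under upper-quartile scaling, where the median log2 change of all Gene IDs was 0.13, 5128 were higher and 3751 lower. With unscaled library totals the median was -1.12, and 717 were higher and 12648 lower. With unscaled totals and the 20 left out, the median was -0.10, and 3774 were higher and 5182 lower. The 20 highest, chosen by their counts at 17 dpf, were all called higher with TMM, upper-quartile factors and the size factors of DESeq2. With TMM 23.2% of all tested were called higher. Rank 19 was called higher on these scales although its share was smaller at 17 dpf. With unscaled totals 14 of the 20 were called higher and 1 lower.

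Gene ID 108271553, the highest at 17 dpf, had 10134 and 10861 CPM at 16 dpf and 557245 and 502498 CPM at 17 dpf. Mean levels were 10497 ± 514 and 529871 ± 38712 CPM (SD, n = 2), 50.5-fold higher at 17 dpf. The log2 fold change was 5.66 with a standard error of 0.359 (edgeR, adjusted p = 2.62e-11), and 4.52 with unscaled totals. Its level at 24 dpf was also high, with 477981 and 424049 CPM. It was lowest at 5 dpf, with 1104 and 1914 CPM.

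A single transcript carried this rise. The Gene ID covers 11 transcripts, of which 7 were tested and 1 was called higher and none lower. That transcript had 85722 and 125674 counts at 16 dpf and 1038147 and 960429 at 17 dpf. The other 10 together had 372 and 438 counts at 16 dpf and 70 and 78 at 17 dpf.

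Gene ID 108277261 had the largest fitted rise among the 3152 that met the rule for naming. It had 107 and 82.3 CPM at 16 dpf and 6784 and 5999 CPM at 17 dpf, a 67.4-fold difference between means of 94.8 ± 17.6 and 6391 ± 555 CPM (SD, n = 2). The log2 fold change was 6.08 with a standard error of 0.39 (edgeR, adjusted p = 3.2e-11), 6.02 with the 20 highest left out and 4.93 with unscaled totals. It stood 1013th by counts at 16 dpf and 21st at 17 dpf, just outside the 20. At 24 dpf it had 5080 and 6363 CPM, and before 16 dpf 142 to 798 CPM.

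Here too 1 transcript held nearly all counts at these ages, with 886 and 922 at 16 dpf and 12638 and 11467 at 17 dpf. The other 39 transcripts had 25 and 34 counts at 16 dpf and 1 and 0 at 17 dpf. Of the 17 transcripts tested, 1 was called higher and 1 lower. The 1 called lower went from 25 and 33 counts to 0 and 0 (edgeR on single transcripts, adjusted p = 0.0148). The picture was different at 5 dpf: the other 39 had 4253 and 4214 counts there, and the 17 dpf transcript 447 and 393. The Gene ID sum at 5 dpf and at 17 dpf thus came from different transcripts.

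Gene ID 108273406 had the most counts at 16 dpf among those called lower, where it ranked 10th. Its share was 0.686 and 0.714% at 16 dpf and 0.2 and 0.179% at 17 dpf. In CPM it had 5148 and 5413 at 16 dpf and 3630 and 2734 at 17 dpf, 1.66-fold lower, with no overlap between the ages. Its log2 fold change was -0.73 with a standard error of 0.196 (edgeR, adjusted p = 0.00384), and -1.88 with unscaled totals. It did not pass a test against a log2 change of 1. At 24 dpf it stood at 9341 and 6927 CPM, the highest of the 7 ages on the TMM scale. Its share at 24 dpf was 0.365 and 0.349%, above that at 17 dpf but below that at 16 dpf. The peak at 24 dpf therefore depended on the scale.

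Of its 5 transcripts, 2 were called lower, with log2 fold changes of -1.67 and -1.08 (edgeR on single transcripts, adjusted p = 1.68e-06 and 0.000206). The other 3 were not called, with log2 fold changes of 0.03 to 0.27. The transcript with the most counts at 16 dpf made up 49.6 and 48.1% of the Gene ID there and 26.6 and 28.4% at 17 dpf.

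Gene ID 100528918 had the largest fitted fall among 3751. It had 161 and 182 CPM at 16 dpf, from 1367 and 2114 counts, and 3.76 and 1.57 CPM at 17 dpf, from 7 and 3 counts. Means were 171 ± 14.9 and 2.66 ± 1.55 CPM (SD, n = 2), 64.4-fold lower at 17 dpf. The log2 fold change was -6.00 with a standard error of 0.551 (edgeR, adjusted p = 8.35e-09), and -7.13 with unscaled totals. It was -6.77 without 17 dpf replicate 1, and -5.52 without 17 dpf replicate 2. Both of its tested transcripts were called lower.

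This Gene ID did not follow a steady course. It was highest at 13 dpf, with 2043 and 746 CPM in replicates that were far apart, and was at 40.1 and 39.1 CPM at 14 dpf, below its 16 dpf level. At 24 dpf it had 19 and 6.89 CPM.

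**Figure D3:**
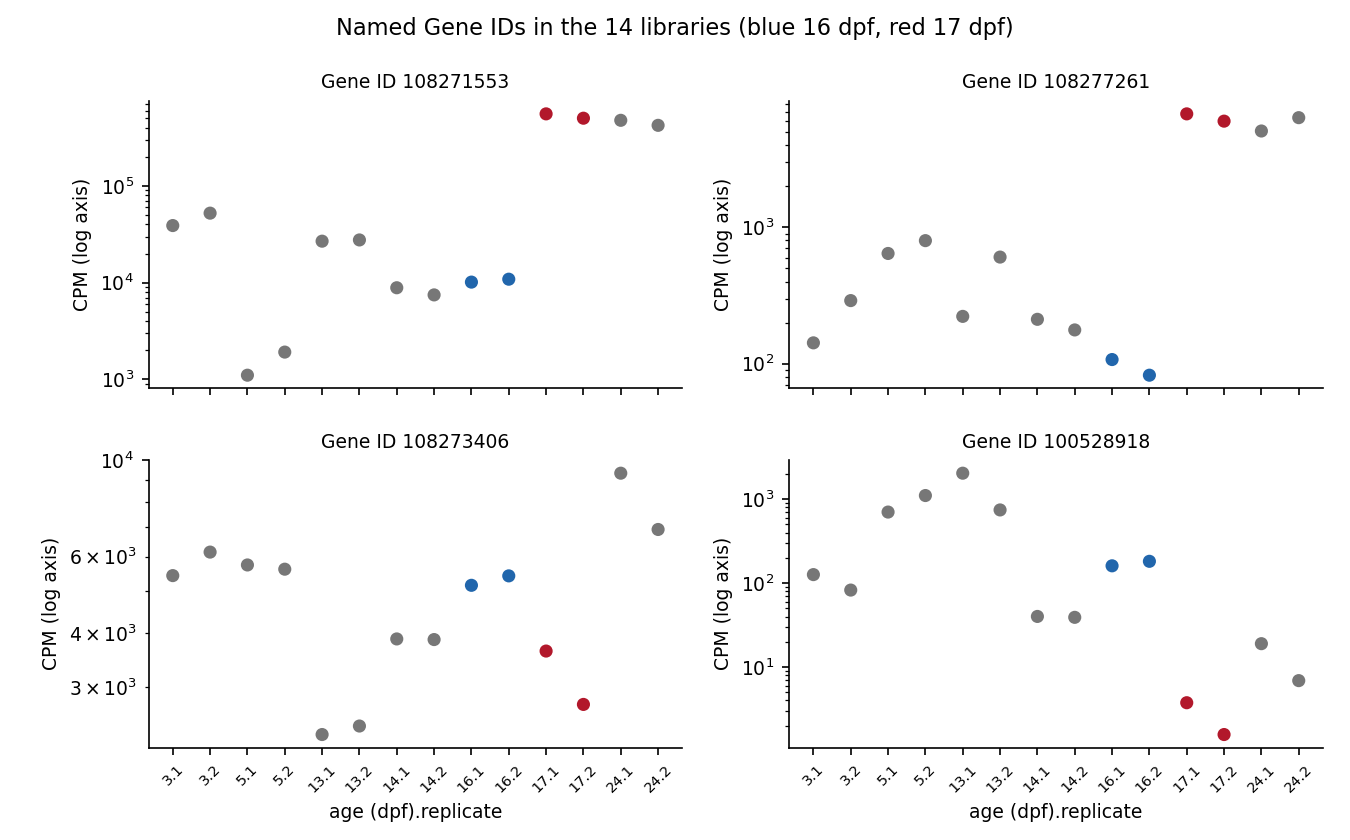
CPM (log axis) of the 4 named Gene IDs in each of the 14 libraries, written as age and replicate, with 16 dpf in blue and 17 dpf in red. Gene IDs 108271553 and 108277261 are high at 17 and 24 dpf, 108273406 is lower at 17 dpf than at 16 and 24 dpf, and 100528918 is at 3.76 and 1.57 CPM at 17 dpf.

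Shares of rises and falls were set out by level. Among the 76 Gene IDs with a mean of at least 1000 CPM over the 14 libraries, 53 (69.7%) were called higher at 17 dpf and 9 (11.8%) lower. Without the 20 highest, 33 of the other 56 were higher and 9 lower. This mean includes the 17 dpf levels, so a Gene ID can enter the class by having risen. By the mean over the 8 libraries of 3, 5, 13 and 14 dpf, 54 Gene IDs reached 1000 CPM, of which 30 (55.6%) were higher and 11 (20.4%) lower. Outside the 20 highest, 11 of 35 were then higher and 11 lower, so the lead of rises there rested on how level was measured. At 10 to 30 CPM falls prevailed, with 1351 (21.2%) of 6375 higher and 1927 (30.2%) lower. Rises led again at lower levels. At 3 to 10 CPM, 1063 (18.8%) of 5669 were higher and 874 (15.4%) lower. Under 3 CPM, 443 (20.6%) of 2149 were higher and 112 (5.21%) lower, but 156 and 609 with unscaled totals. A Gene ID at these lower levels can pass the low-count filter only through the ages where it is high. These classes were not redone with levels from other ages, and the part of the filter in this lead was not tested. By the 14-library mean, the lead of rises above 1000 CPM was also found with upper-quartile factors and the size factors of DESeq2. With unscaled totals it was 31 higher and 26 lower, and 17 higher and 25 lower among the 56. At 10 to 30 CPM, the lead of falls was gone under upper-quartile scaling, with 1631 higher and 1616 lower.

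The number of assembled transcripts under a Gene ID went with the direction. Of the 402 Gene IDs with 31 or more transcripts, 247 (61.4%) were called higher and 49 (12.2%) lower. Of the 2220 with 1 transcript, 336 (15.1%) were higher and 459 (20.7%) lower. Classes between these lay between them in the share called higher. Gene IDs with many transcripts were also more abundant, with a median of 92 CPM against 4.75 for those with 1.

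Within a band of level the difference was still there, but level was not equal inside a band. Median levels were 59.7 CPM for 31 or more transcripts and 38.4 CPM for 1 in the 30 to 100 band. In the 10 to 30 band they were 21.7 and 14.1 CPM. At 30 to 100 CPM, 80 (55.6%) of 144 Gene IDs with 31 or more transcripts were higher and 21 (14.6%) lower, while 14 (20.9%) of 67 with 1 transcript were higher and 39 (58.2%) lower (edgeR, as above). At 10 to 30 CPM, 33 (63.5%) of 52 and 76 (18.1%) of 419 were higher. With bands set by the 8 libraries of 3 to 14 dpf, 88 (58.3%) of 151 and 11 (14.5%) of 76 were higher at 30 to 100 CPM. With unscaled totals the median log2 change was -0.48 for 31 or more transcripts and -1.18 for 1, against -1.12 over all. There, 90 of the 402 were higher and 217 lower, so the direction turned with the scale. What the number of transcripts stands for (gene copies, isoforms or fragments of the assembly) was not tested.

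**Figure D4:**
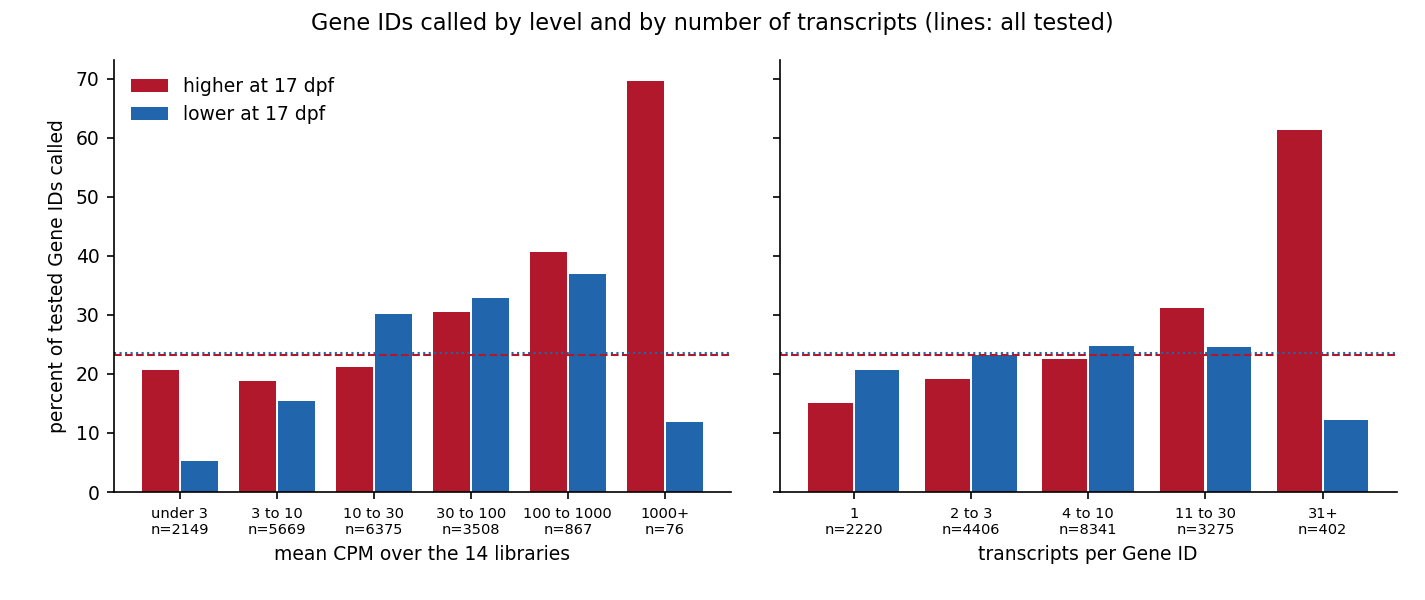
Percent of tested Gene IDs called higher (red) or lower (blue) at 17 dpf, by mean CPM over the 14 libraries (left) and by number of transcripts per Gene ID (right), with dashed and dotted lines at 23.2 and 23.6% for all tested. By this mean, which includes 17 dpf, rises reach 69.7% of Gene IDs at 1000 CPM or more. They reach 61.4% of those with 31 or more transcripts.

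At the depths of these libraries, few Gene IDs were seen at 17 dpf and not the day before. Where 20 counts or more were asked of an age, summed over its replicates, and fewer than 3 of the other, 4 Gene IDs were seen at 17 dpf and not at 16 dpf, none with more than 34 counts. In the other direction 219 were seen at 16 dpf and not at 17 dpf. The 16 dpf libraries held 15185309 counts together and the 17 dpf libraries 6301344, so the limit was easier to reach at 16 dpf. When 16 dpf counts were scaled down to the 17 dpf total, 80 met it. That total includes the 20 highest Gene IDs. Without them, the Gene IDs tested held 5023539 and 6927190 counts at 16 dpf and 1317863 and 1157516 at 17 dpf. The limit thus stayed easier to reach at 16 dpf after this scaling. Fewer than 3 counts was in turn harder to meet at 16 dpf. The 4 were not recounted at equal depth, so 4 and 80 are not a like comparison. Of the 219, 163 also had at least 20 counts at another age, 124 of them at 14 dpf. None of the 4 had 20 counts at any other age.

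With every Gene ID kept, the ages overlapped in the number of Gene IDs expected under Poisson sampling. At an equal 2920437 counts per library, 20367 and 20397 Gene IDs were expected to be seen at 16 dpf, and 19940 and 20702 at 17 dpf. Such sampling lowers the number most in libraries near that depth. At its own 2920437 counts, 17 dpf replicate 2 had 21223 Gene IDs seen, against the 20702 expected. Whether the ages overlap at equal depth is therefore not settled. With the 20 highest left out, at 1165115 counts, 19704 and 19717 were expected at 16 dpf and 19939 and 20682 at 17 dpf, so that both 17 dpf libraries were then above both 16 dpf libraries.

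The Gene IDs of the 1-day change also differed between ages that share no library with it. Between 24 and 14 dpf, 22.3% of all tested Gene IDs were called higher at 24 dpf and 25.3% lower. Of the 4333 Gene IDs higher at 17 than at 16 dpf, 2172 (50.1%) were higher at 24 than at 14 dpf and 344 (7.94%) lower. Of the 4395 lower at 17 dpf, 340 (7.74%) were higher at 24 dpf and 2361 (53.7%) lower. The median log2 change from 14 to 24 dpf was 0.847 in the first group and -0.998 in the second, against -0.287 over all tested. For fixed groups, a gap between such medians does not depend on the scaling of libraries. The numbers called higher or lower, here and between the younger ages, can depend on it. With unscaled totals 1011 of all tested were higher at 24 than at 14 dpf and 13374 lower, and the 2 groups were not counted there. The groups themselves were called on the TMM scale, and groups called on another scale were not followed.

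The youngest ages gave a similar split. Between 3 and 5 dpf, 20.4% of all tested were higher at 3 dpf and 24.7% lower. Of those higher at 17 dpf, 1948 (45%) were higher at 3 than at 5 dpf and 294 (6.79%) lower. Of those lower at 17 dpf, 282 (6.42%) were higher at 3 dpf and 2284 (52%) lower. Median log2 changes, 3 over 5 dpf, were 0.501 and -0.582, against -0.04 over all.

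Between 13 and 14 dpf, also 1 day apart, the split was weaker. There 24.3% of all tested were higher at 13 dpf and 23.5% lower. Of those higher at 17 dpf, 1331 (30.7%) were higher at 13 than at 14 dpf and 881 (20.3%) lower. Of those lower at 17 dpf, 1173 (26.7%) were higher and 1367 (31.1%) lower. Median log2 changes, 13 over 14 dpf, were 0.10 and -0.08, against -0.0098 over all. In each of these 3 comparisons, as at 17 against 16 dpf, the first age had the smaller library totals. The 14 dpf libraries held 4757144 and 5251837 counts, those of 24 dpf 1885922 and 1438364, and those of 13 dpf 3625128 and 2762591. The 3 dpf libraries held 2376118 and 2381951, those of 5 dpf 5470833 and 4467279. The part of depth in the split was not tested.

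**Figure D5:**
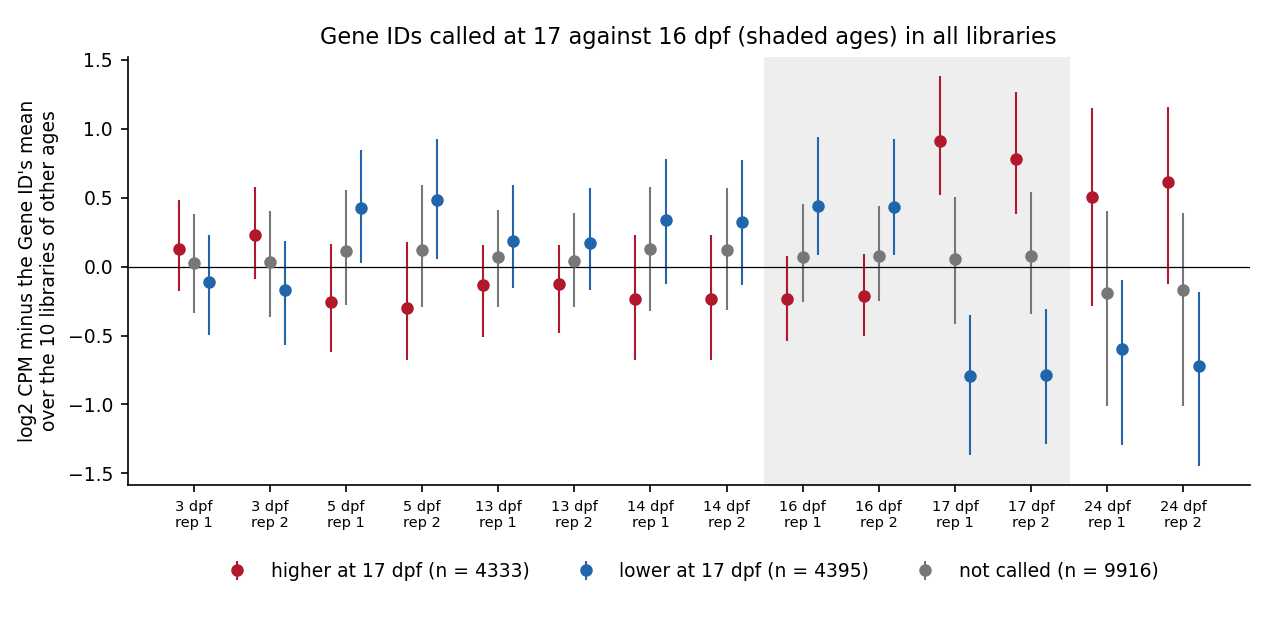
Median (point) and quartiles (line) of log2 CPM in each library, after subtracting each Gene ID's mean over the 10 libraries of the other ages, for Gene IDs called higher, called lower or not called at 17 against 16 dpf. The shaded ages chose the groups. Outside them, those higher at 17 dpf have medians of 0.508 and 0.612 at 24 dpf and -0.237 and -0.236 at 14 dpf, and those lower at 17 dpf have -0.597 and -0.723 at 24 dpf and 0.336 and 0.322 at 14 dpf.

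Among single transcripts, 13426 of 42923 (31.3%) were called between 17 and 16 dpf, 6638 higher and 6788 lower (edgeR, adjusted p under 0.05). Transcripts of the same Gene ID mostly moved the same way. Of the 2135 Gene IDs with 2 or more transcripts called, 948 had all of them higher, 915 all lower, and 272 (12.7%) had both. The sum of these 272 was called higher in 94, lower in 60 and neither in 118, so a summed count can hide opposite moves.

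The transcript with the most counts was compared over the 3986 Gene IDs with 2 or more transcripts and at least 50 counts in each of the 4 libraries. It differed in 13.4 to 14.1% of Gene IDs between a 16 and a 17 dpf library, against 4.87% between the 16 dpf replicates and 9.91% between the 17 dpf replicates. In 3448 Gene IDs it was the same in both replicates of each age, and in 243 of these (7.05%) it was a different transcript at 17 than at 16 dpf. Reads from near-identical copies may have been shared among transcripts in the authors' counting, and that was not tested.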

How the data were processed

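The authors deposited expected counts per Trinity transcript, 1 column per library, which are estimated counts and not all whole numbers. Tools listed in the submitters' processing notes are RSEM, Trimmomatic 0.36, CASAVA 1.9.1, DESeq2 and FastQC, with no roles. The sources used here do not say how Gene IDs were assigned, whether strand was used or which genome build applies. The 5672 lines with letters in the Gene ID (0.351 to 0.462% of counts at 16 and 17 dpf) were left out, and the rest were summed per Gene ID and rounded.

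Sums from all 14 libraries were fitted with age as the only term in edgeR 4.0.16 (R 4.3.3), with filterByExpr at a minimum count of 10, TMM and the quasi-likelihood F test. P-values were Benjamini-Hochberg adjusted over all Gene IDs tested, and the standard error is the log2 fold change over the square root of F. The 20 highest were removed before totals, filter and TMM in the second run. Expected numbers seen assume Poisson sampling. Alternatives included DESeq2 1.42.0 and limma-voom (limma 3.58.1).

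Named were, among Gene IDs called higher, the one with the most counts at 17 dpf, and, among those called lower, the one with the most at 16 dpf. The largest rise and fall were added, among Gene IDs called in both runs without overlap and with at least 10 CPM at the higher age and 1 CPM at the lower. Ranking by fold favours low levels at the other age. The comparison, lists and tests were chosen with earlier results of these data known. Class limits, bands of level, levels from other ages and splits by class under each scaling were set after seeing the data. No symbols were available, so the marker lists were not tested.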

Additional observations from a re-analysis of the deposited data

How the results depend on the processing

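Counts of changed Gene IDs stayed within 1.5 times of those reported, with and without the 20 highest, under upper-quartile scaling, DESeq2's size factors, both other low-count filters, DESeq2, limma-voom, the 4 libraries alone and the Gene IDs with letters kept, and when 1, 5 or 100 Gene IDs were left out. With unscaled totals 13365 were called with the 20 highest kept and 8956 without them. A test against a log2 change of 1, which can only lower a count, gave 2183 with and 2427 without the 20. Single transcripts, a larger number of units, gave 13426 and 14119. The 20 highest single transcripts at 17 dpf held 46.8% of counts, against 60.5% for the 20 Gene IDs, whose counts are spread over 995 transcripts.

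Leaving out each library of 16 or 17 dpf gave 6872 to 7368 changed Gene IDs with the 20 and 7209 to 7664 without. No pairing by replicate number was seen: same-numbered deviations at 16 and 17 dpf had r = -0.04, which cannot exclude pairing. With the replicate block 8576 and 8848 were called. Of the named Gene IDs, 108273406 alone lost its call in any alternative, that against a log2 change of 1. Its log2 fold change was -1.04 to -0.56 without 1 library. Calls from the 4 libraries alone kept each split at other ages within 1.5 times. Depth at 17 dpf limits low levels most.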

Other observations

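Few of the Gene IDs with letters, left out of the sums, were called. When they were kept in the fit, 196 of them were tested, of which edgeR called 26 higher and 1 lower at 17 dpf (adjusted p under 0.05). Over all Gene IDs in that fit 46.3% were called. The 196 are a part of 1401 Gene IDs with letters, and level was not matched between them and the others. Gene IDs with letters held 1.46 and 1.54% of counts at 24 dpf, against 0.351 to 0.462% at 16 and 17 dpf.

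Ranks 2 and 3 at 17 dpf, with 343 and 297 transcripts, moved in near step. The counts of the second were 0.979 to 1.15 times those of the third in each of the 14 libraries. At 17 dpf they held 6.46 and 5.82% and 5.77 and 5.18% of counts, against 4.65 and 4.58% and 4.18 and 4.12% at 16 dpf.

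The Gene IDs below the 20 highest were also less evenly spread at 17 dpf. With the 20 left out, 637 and 847 Gene IDs made up 50% of counts at 17 dpf, against 1208 and 1179 at 16 dpf.

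The 402 Gene IDs with 31 or more transcripts were also compared between 24 and 14 dpf, and their direction there depended on the scale. With TMM factors 213 were higher at 24 dpf and 71 lower, while of the 2220 with 1 transcript 246 were higher and 587 lower. With unscaled totals 68 of the 402 were higher and 254 lower, and the median log2 change was -0.86, against -2.31 for 1 transcript and -1.75 over all tested. With TMM factors, between 13 and 14 dpf, 139 of the 402 were higher and 107 lower.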
